A study of Mus musculus with 4 samples.

Results

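A run of 20 array features on mouse chromosome 5, around the gene model Gm7682, was examined across the 4 arrays of a Rif1 knockdown experiment. The members were all non-control probes that the array files place between 94000000 and 96300000 of the mm9 assembly, 20 of the 39429 probes on each array. The interval was chosen by the rise of its probes on the Rif1 siRNA array at 72 h against the control siRNA array, so the values of that comparison describe the choice and are not evidence for it. Total RNA of E14tg2a cells, a mouse ES cell line grown without feeder cells in serum and LIF, was measured on one-color Agilent arrays. One array held untreated cells, for which the methods give no harvest time, and 1 held cells 72 h after control siRNA. The other 2 held cells 48 h or 72 h after the siRNAs that the methods name mRif1#2 and NC#1, here called Rif1 siRNA. No group carries a genetic change, and all share the cell line and medium. Conditions were not replicated (1 array each), and differences are therefore given with neither a test nor a p-value.

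By symbol, 19 of the 20 probes belonged to a repeated gene family, with 10 gene symbols, and 1 probe (A_55_P1979723) had no gene symbol. None of the 20 was counted as an ordinary neighbouring gene. Every numbered Gm gene model was counted with the family, so this absence is in part set by the rule. The current RefSeq symbol was a Pramel name for 4 of the 10 genes: Pramel34 for C87414, Pramel39 for A430089I19Rik, Pramel48 for D5Ertd577e and Pramel50 for Gm7978. Gm6351, Gm6468, AA792892 and E330014E10Rik had no Pramel name there and were counted with the family by symbol, as were Gm7682 and Gm7963, which had no entry. The array files give Gm7682, Gm6351 and Gm6468 only in the description of the probe.

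Pramel genes are mouse relatives of PRAME, which encodes a leucine-rich repeat protein named as an antigen of human melanoma and known to act as a substrate receptor of a cullin ubiquitin ligase. In the mouse genome they form clusters of near-identical copies, and many are transcribed mainly in the germ line and early embryo. Genes of the 2-cell embryo are also active at any time in a small part of cultured ES cells, a passing state marked by Zscan4. Rif1 is a chromatin-bound regulator of DNA replication timing that also takes part in gene silencing and DNA repair.

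Copies this alike set a limit on what a probe can read, so the sequences of 8 probes are shown. The first 4 stand for genes with differences above 16-fold, the middle pair (the fifth and sixth) shares a stretch (capitals, 23 bases), and the last pair lies in C87414, where capitals mark AATAAA, the usual polyadenylation signal.
A430089I19Rik A_55_P1976037: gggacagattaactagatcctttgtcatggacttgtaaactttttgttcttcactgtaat
Gm7682 A_55_P1959546: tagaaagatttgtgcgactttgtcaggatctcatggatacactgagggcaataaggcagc
Gm7978 A_66_P114435: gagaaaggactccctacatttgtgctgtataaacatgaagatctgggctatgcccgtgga
E330014E10Rik A_55_P2054179: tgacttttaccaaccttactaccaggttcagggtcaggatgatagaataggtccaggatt
E330014E10Rik A_55_P2105970: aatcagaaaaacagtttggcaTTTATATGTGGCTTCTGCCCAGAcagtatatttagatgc
AA792892 A_55_P1965649: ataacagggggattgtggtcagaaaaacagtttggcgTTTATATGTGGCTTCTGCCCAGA
C87414 A_55_P2021570: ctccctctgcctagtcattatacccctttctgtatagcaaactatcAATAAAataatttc
C87414 A_55_P2098985: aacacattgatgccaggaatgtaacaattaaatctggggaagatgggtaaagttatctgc
In this order the files place them on mm9 at chr5:94731576-94731635 (minus strand), chr5:94877422-94877481 (plus), chr5:94497295-94497354 (minus), chr5:96233113-96233172 (plus), chr5:96233016-96233075 (plus), chr5:94813298-94813357 (plus), chr5:94064222-94064280 (minus) and chr5:94064019-94064078 (minus). The seventh spans 59 bases there, though the probe has 60. The E330014E10Rik and AA792892 probes matched at 41 of 44 bases in their best ungapped overlap. No other pair of family probes shared a word of 16 bases. On the probe strand AATAAA occurred in 2 of the 19 family probes, those of C87414 shown here and Gm6351, and in 12.6% of all probes on the array.

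The array annotation listed RefSeq transcripts of 2 or more genes for 8 of the 19 family probes. The Gm7978 probe shown above was listed with Pramel37, Pramel39 and Pramel50, and the other Gm7978 probe with Pramel37 and Pramel50. Both A430089I19Rik probes were listed with Pramel39 and LOC100503733. The 3 E330014E10Rik probes were each listed with Gm3286 and E330014E10Rik. Of these, A_55_P2142695 was also listed with Gm16367, and A_55_P2105970 also with Pramel48, the gene that the D5Ertd577e probes read. Of the other family probes, 6 were listed with 1 gene (the 4 D5Ertd577e probes, C87414 A_55_P2021570 and the AA792892 probe) and 5 with none. For the 8 probes listed with several genes, which copy gave the signal cannot be told apart. For the 5 listed with none, among them those of Gm7682, Gm6468, Gm7963 and Gm6351, the annotation does not show how many copies they read. A level below is therefore that of a probe.

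The first and last member probes lay 2169154 bases apart, ends included. The widest stretch without a probe was 834 kb, between Gm7682 and Gm6468. C87414, Gm7978 and A430089I19Rik were read on the minus strand by 7 probes, and the other 7 genes on the plus strand by 12. The GC content of the family probes ranged from 35.0% to 46.7% with a median of 41.7%, beside a median of 43.3% over the 27706 probes that passed the filter on low signals.

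Promoters were in the RefSeq table (GRCm38.p6) for 4 of the 8 family genes with a RefSeq symbol. Over the 300 bases that the table holds for each, these fell into 2 sequence types. The 100 bases before the annotated start are shown. Capitals mark TATAAA, the core of the TATA box.
Pramel39 (A430089I19Rik): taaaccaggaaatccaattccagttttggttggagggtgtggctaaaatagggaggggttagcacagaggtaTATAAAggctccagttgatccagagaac
Pramel50 (Gm7978): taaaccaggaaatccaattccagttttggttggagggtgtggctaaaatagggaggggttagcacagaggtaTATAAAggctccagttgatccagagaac
Pramel48 (D5Ertd577e): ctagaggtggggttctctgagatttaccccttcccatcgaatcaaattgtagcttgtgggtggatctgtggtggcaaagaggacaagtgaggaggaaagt
E330014E10Rik: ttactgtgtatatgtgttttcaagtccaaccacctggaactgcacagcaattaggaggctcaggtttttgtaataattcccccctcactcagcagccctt
The promoters were matched by symbol alone, so each may be that of another copy than the one at the mm9 position of the probes. On GRCm38.p6 they lie at chr5:94306797-94306896 (minus strand), chr5:95736174-95736273 (minus), chr5:95456706-95456805 (plus) and chr5:95775770-95775869 (plus). The Pramel50 promoter thus lies to the right of that of Pramel48 on this build, whereas the Gm7978 probes lie to the left of the D5Ertd577e probes on mm9, so for Gm7978 the promoter and the probes do not sit in the same order. Over the full 300 bases of the table, the Pramel39 and Pramel50 promoters matched at 296 of 298 aligned bases. The Pramel48 and E330014E10Rik promoters matched at 178 of 180 aligned bases, and neither of these shared a run longer than 7 bases with Pramel39 or Pramel50. The aligned bases of Pramel48 and E330014E10Rik cover only part of the 300, and the windows printed for them are not the same stretch. TATAAA began 28 bases before the start in Pramel39 and Pramel50, and neither strand of the other pair held it in 300 bases. Of the 32851 promoters of this length in the table, 8.32% held TATAAA on the gene strand and 13.6% on either strand. Among the 16 promoters that the table places between the outermost matched genes, shared words of 16 bases formed 4 groups. All 6 of the group of Pramel39 and Pramel50 held the motif, and 0 of the 4 of the group of Pramel48 and E330014E10Rik did. The motif was also in 3 of 3 promoters of the group of Pramel45 and in 0 of 3 of the group of Pramel40. A match to these letters is a description of the window and does not show that a factor binds there.

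Levels are processed signals divided by the 75th percentile over the spots of the same array. Signals that the software did not flag as well above background are called dim. The single probe of Rif1, the targeted gene, read 5.55 and 5.42 on the untreated and control siRNA arrays and 2.15 and 4.15 on the 48 h and 72 h Rif1 siRNA arrays. The 13 probes of 8 ES cell markers, among them Pou5f1 and Sox2, included 0 that differed over 2-fold between Rif1 siRNA at 72 h and control siRNA. The summed level of the 10 probes of 6 genes of the 2-cell-like state, including Zscan4c and Tcstv1, was 10.4, 17.7, 201 and 234 on the arrays in this order, and 9 of the 10 were over 2-fold higher at 72 h than with control siRNA. Of the 4 trophoblast probes (Cdx2, Gata3 and Krt8) 2 were over 2-fold higher in that comparison, and the lists for primitive endoderm, mesoderm, neural cells and fibroblasts held 0 probes over 2-fold higher or lower. Of these, the 2 fibroblast probes were each higher by 0.82 on the log2 scale. Over all probes that passed the filter on low signals 2.83% were over 2-fold higher in that comparison, so the counts of 0 in these short lists are near the overall share. Spots well above background made up 58.8%, 62.8%, 71.5% and 74.1% of the arrays in the same order, and the lowest level well above background was 0.0236, 0.0159, 0.00779 and 0.00543. These shares and the 2-cell-like sum were, like the family levels below, higher on both Rif1 siRNA arrays than on the others, and their part in those levels was not tested. Between 48 h and 72 h the shares and the sum rose. The median log2 difference of the 17 family probes that passed the filter was -0.03 between these arrays, with a range from -0.21 to 0.30. In RNA from a whole culture, more cells in a state and more RNA per cell cannot be told apart.

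Not every family probe gave a readable signal on every array. Of the 19 family probes, 17 passed the filter on low signals. Among these 17, 9 were well above background in untreated cells, 11 with control siRNA, and 17 on each Rif1 siRNA array. Their median level was 0.0469, 0.0831, 1.01 and 0.905 on these arrays, and their highest 0.172, 0.370, 9.22 and 8.37. The filter counts signal on any pair of arrays, so probes bright only with Rif1 siRNA could pass it, as 6 of the 17 did, and the counts on the Rif1 siRNA arrays are in part set by this filter and by the choice of the interval. The software's own error for a member's signal had a median of 10.2% of the level, at most 17.8%, where the probe was well above background, and a median of 99.5%, at least 22.5%, where it was dim.

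**Figure D1:**
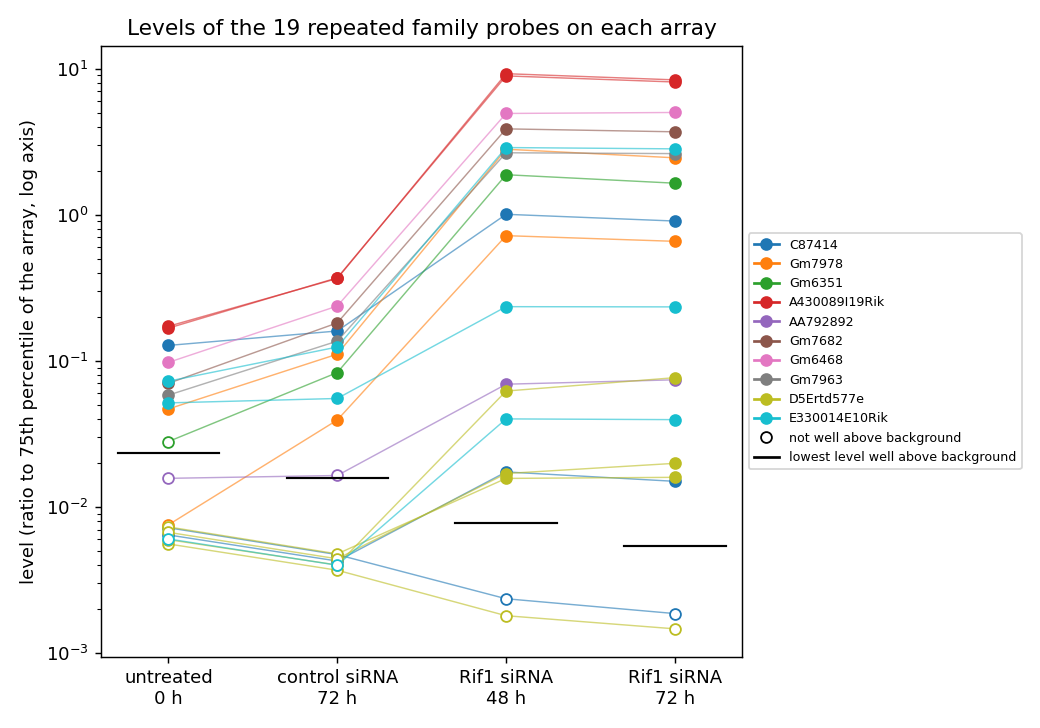
Level of each of the 19 repeated family probes (array 75th percentile set to 1, log axis) on the 4 arrays, 1 point per probe and array, colored by gene. Open points were not well above background, black bars mark the lowest level well above background, and the A430089I19Rik points at the top go from 0.172 in untreated cells to 8.37 at 72 h of Rif1 siRNA.

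A430089I19Rik (Pramel39) went from well under the 75th percentile of the array to several times above it. Its probe A_55_P1976037 read 0.172 on the untreated, 0.366 on the control siRNA, 9.22 on the 48 h and 8.37 on the 72 h array. The other probe, A_55_P1992976, 3 bases away on the genome, read 0.167, 0.370, 8.91 and 8.09 in the same order. Against control siRNA the level at 72 h was 22.9-fold higher by the first probe and 21.9-fold higher by the second, so the pair gave nearly the same values on every array.

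Gm7978 (Pramel50) was read by a pair of probes. A_55_P1955583 read 0.0469, 0.111, 2.81 and 2.45 on the untreated, control siRNA, 48 h and 72 h arrays, and A_66_P114435 read 0.00755 (dim), 0.0394, 0.719 and 0.657. The difference at 72 h was 22.1-fold for the first and 16.7-fold for the second, which was 7.85-fold after normexp correction. The second is the probe listed with 3 genes.

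The 4 numbered gene models without a Pramel name were 19.2-fold to 21.1-fold higher at 72 h than with control siRNA. Gm6468 read 0.0976, 0.237, 4.93 and 5.01 on the 4 arrays in the same order, 21.1-fold higher at 72 h than with control siRNA. Gm7682, after which the region is known, read 0.0701, 0.182, 3.87 and 3.69, a 20.3-fold difference. Gm7963 read 0.0583, 0.136, 2.65 and 2.62, a 19.2-fold difference. Gm6468, Gm7682 and Gm7963 were well above background on every array, and both Rif1 siRNA arrays lay above both others. Gm6351 read 0.0280 (dim), 0.0831, 1.88 and 1.64, a 19.8-fold difference. After normexp correction the log2 difference of Gm6351 was 3.60 in place of 4.30.

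The 3 probes of E330014E10Rik gave unlike differences. A_55_P2054179 read 0.0726, 0.124, 2.88 and 2.82 on the 4 arrays and was 22.7-fold higher at 72 h than with control siRNA. A_55_P2105970, the neighbouring probe that shares a stretch with AA792892, read 0.0515, 0.0553, 0.235 and 0.234 and was 4.23-fold higher, a log2 difference of 2.08 that was 1.38 after normexp correction. A_55_P2142695 was dim in untreated cells and with control siRNA and read 0.0401 and 0.0396 at 48 h and 72 h, at least 2.50-fold higher at 72 h. After normexp correction its bound was 1.35-fold. The 3 probes lie within 2260 bases of mm9 and share the E330014E10Rik and Gm3286 transcripts, so 1 fold for the gene cannot be given.

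C87414 (Pramel34), at the left end of the interval, had 3 probes within 461 bases. A_55_P2021570 read 0.127, 0.160, 1.01 and 0.905 on the 4 arrays, 5.65-fold higher at 72 h than with control siRNA. A_55_P2021572, which is also listed with Gm6367, was dim without Rif1 siRNA and read 0.0174 and 0.0150 with it, too low for a fold at 72 h. A_55_P2098985, designed on a cDNA clone from 2-cell eggs, was dim on all 4 arrays.

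D5Ertd577e (Pramel48) had 4 probes within 360 bases, and all 4 were dim without Rif1 siRNA. A_55_P2145465 was dim without Rif1 siRNA and read 0.0621 at 48 h and 0.0767 at 72 h, at least 4.83-fold higher at 72 h than with control siRNA. After normexp correction that bound was 1.97-fold. A_55_P2069802 read 0.0169 and 0.0199 and A_55_P2114709 read 0.0157 and 0.0160 on the same arrays, at least 1.25-fold and at least 1.01-fold higher at 72 h. The 1 other probe, A_55_P2069806, was dim on every array. AA792892 was dim in untreated cells (0.0157) and with control siRNA (0.0164) and read 0.0692 and 0.0742 at 48 h and 72 h, at least 4.52-fold higher at 72 h. After normexp correction the AA792892 bound was 1.82-fold.

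Of the members, 3 did not pass the filter, the dim C87414 and D5Ertd577e probes and the probe without a symbol. Their levels ranged from 0.00147 to 0.00721 over the 4 arrays, all below the lowest level well above background of their array.

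Counted over the choosing comparison, 14 of the 17 family probes that passed were over 2-fold higher at 72 h of Rif1 siRNA than with control siRNA, 11 of them measured on both arrays and 3 by a lower bound. Over all probes that passed, 2.83% were over 2-fold higher. Normexp background correction left 11, since the lower bounds of AA792892, D5Ertd577e A_55_P2145465 and E330014E10Rik A_55_P2142695 fell to 1.82-fold, 1.97-fold and 1.35-fold. The interval was selected for this count, and nothing is read from it. The median over the 16 family probes with a value was 4.16 on the log2 scale, beside -0.05 over all probes. Just inside the threshold lay the E330014E10Rik probe at 2.50-fold or more, and the next bound was that of D5Ertd577e A_55_P2069802, at 1.25-fold or more, which does not place that probe under the threshold. With dim signals taken as given its log2 difference was 2.17, and all 17 probes were over 2-fold higher.

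The 11 measured probes, from 8 genes, fell apart by size of the difference. For 9 probes of 7 genes the level at 72 h was 16.7-fold to 22.9-fold that of control siRNA, a range from 4.06 to 4.51 on the log2 scale. The C87414 probe, at 2.50, and the E330014E10Rik probe A_55_P2105970, at 2.08, lay lower, with a gap of 1.56 between the 2 sets. After normexp correction the gap was 0.84, and the lowest of the 9, Gm7978 A_66_P114435, was 7.85-fold. E330014E10Rik had a probe in each set, whereas both probes of A430089I19Rik and both of Gm7978 were in the upper one. It was drawn after the values were seen and is given as a description.

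**Figure D2:**
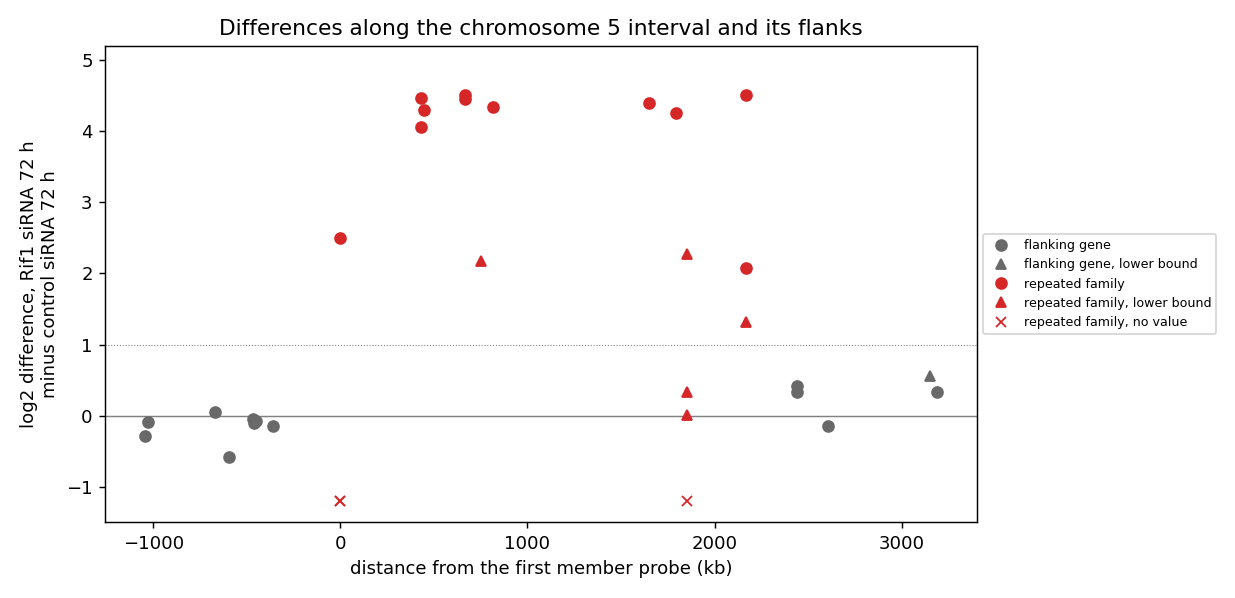
Log2 difference between Rif1 siRNA at 72 h and control siRNA at 72 h against distance from the first member probe (kb), 1 point per probe that passed the filter; triangles are lower bounds, crosses family probes without a value, and the dotted line is 2-fold. The red family points reach 4.51 left of the 834 kb stretch without probes and 4.50 right of it, and the gray flanking genes lie between -0.58 and 0.56.

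The differences followed no single direction along the interval. The probes above 16-fold ran from Gm7978 in the left part to the right end of the interval, where E330014E10Rik A_55_P2054179 is the last member. Among the 11 measured probes, the smaller differences were those of C87414 at the left end and of E330014E10Rik A_55_P2105970 near the right end. The nearest probe to the left, 244303 bases before the first member, read 0.0681, 0.0621, 0.0729 and 0.0644 on the 4 arrays, a 1.04-fold difference at 72 h. Cxcl13, a chemokine gene and the nearest to the right, lies 156689 bases after the last member and did not pass the filter. It was well above background only on the Rif1 siRNA array at 72 h, at 0.00964. That is under the lowest level well above background on the untreated (0.0236) and control siRNA (0.0159) arrays, so no rise is read from it.

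With no probe inside the interval counted as an ordinary gene, genes with a RefSeq symbol within 1 Mb on either side were taken for comparison after the values were seen. Their 19 probes stood for 14 genes, and 13 probes passed the filter. At 72 h of Rif1 siRNA against control siRNA 0 of the 13 were over 2-fold higher, beside the 2.83% of all probes given above, and 0 were over 2-fold lower. A count of 0 in so few probes is near that share. Their median log2 difference was -0.07, beside -0.05 over all probes. Ccng2, a cyclin gene on the left, was the exception in other comparisons: it read 0.0222 (dim), 0.0614, 0.0247 and 0.0557 on the 4 arrays, 0.401-fold at 48 h against control siRNA and at least 2.61-fold higher with control siRNA than in untreated cells. Ccni, a cyclin gene on the left, read 9.15, 9.77, 9.73 and 9.28 on the untreated, control siRNA, 48 h and 72 h arrays. Mrpl1, a mitochondrial ribosomal protein gene on the right, read 1.90, 1.92, 1.75 and 1.73. Anxa3, an annexin gene, read 0.569, 0.531, 0.743 and 0.667, a 1.26-fold difference at 72 h. The measured flanking probes ran from Sowahb, at -0.58, to Cnot6l, at 0.42, and the lower bound of Fras1 was 0.56. With 1 array per condition, the difference between family and flanking genes has no test.

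At 48 h of Rif1 siRNA the family was already high. Against the same control siRNA array, 14 of the 17 probes were over 2-fold higher (11 measured, 3 by a lower bound), beside 3.17% of all probes that passed, and normexp correction left 11. The median was 4.24 on the log2 scale, beside -0.05 over all probes. The 9 probes of the upper set were 18.3-fold to 25.3-fold higher. This comparison shares its control with the one that chose the interval, and the control was harvested at 72 h, so time and siRNA cannot be told apart in it.

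Between 48 h and 72 h of Rif1 siRNA the family levels moved little. All 17 probes were measured on both arrays, and 0 were over 2-fold higher or lower at 72 h, beside 0.491% higher and 0.679% lower over all probes. The median log2 difference was -0.03, beside -0.00 over all probes, with a range from -0.21 to 0.30. The level was lower at 72 h for 12 probes and higher for 5. The highest ratio was that of D5Ertd577e A_55_P2145465, 1.23-fold from a low level, and the lowest that of C87414 A_55_P2021572, 0.862-fold. The Gm7978 and Gm6351 probes were 0.874-fold to 0.914-fold and Gm6468 was 1.02-fold. Over the same interval the Rif1 probe itself went from 2.15 to 4.15, a 1.93-fold difference.

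Without Rif1 siRNA, the family also read higher in the transfected than in the untreated cells. Of the 17 probes, 7 were over 2-fold higher with control siRNA than in untreated cells, 6 measured and 1 by a lower bound, beside 0.585% of all probes that passed. All 9 measured probes were higher, from 1.07-fold to 2.59-fold, with a median of 1.14 on the log2 scale over the 11 with a value, beside -0.00 over all probes. After normexp background correction 0 probes were over 2-fold higher and the 9 measured ones ranged from 0.982-fold to 1.94-fold, with 8 of them above 1, so the size of this difference depends on this setting, which changes the background model and also adds an offset to low signals. Gm7682 had the highest measured ratio, 2.59-fold (0.0701 against 0.182). Gm6468 was 2.43-fold, Gm7978 A_55_P1955583 2.37-fold, Gm7963 2.34-fold and the A430089I19Rik probes 2.12-fold and 2.21-fold higher. E330014E10Rik A_55_P2054179 was 1.71-fold higher. Gm6351, dim in untreated cells, was at least 2.96-fold higher.

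The probes of the lower set differed least here as well. C87414 A_55_P2021570 was 1.26-fold and E330014E10Rik A_55_P2105970 1.07-fold higher with control siRNA than in untreated cells. Both comparisons use the control siRNA array, so the values are set side by side only. The summed level of the 2-cell-like genes also differed between these arrays (10.4 and 17.7), as did the share of spots well above background. Of the 10 2-cell-like probes, 5 were over 2-fold higher with control siRNA, beside 0.585% of all probes that passed. The methods do not give a harvest time for the untreated cells. The part of any of these in the family values was not tested.

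**Figure D3:**
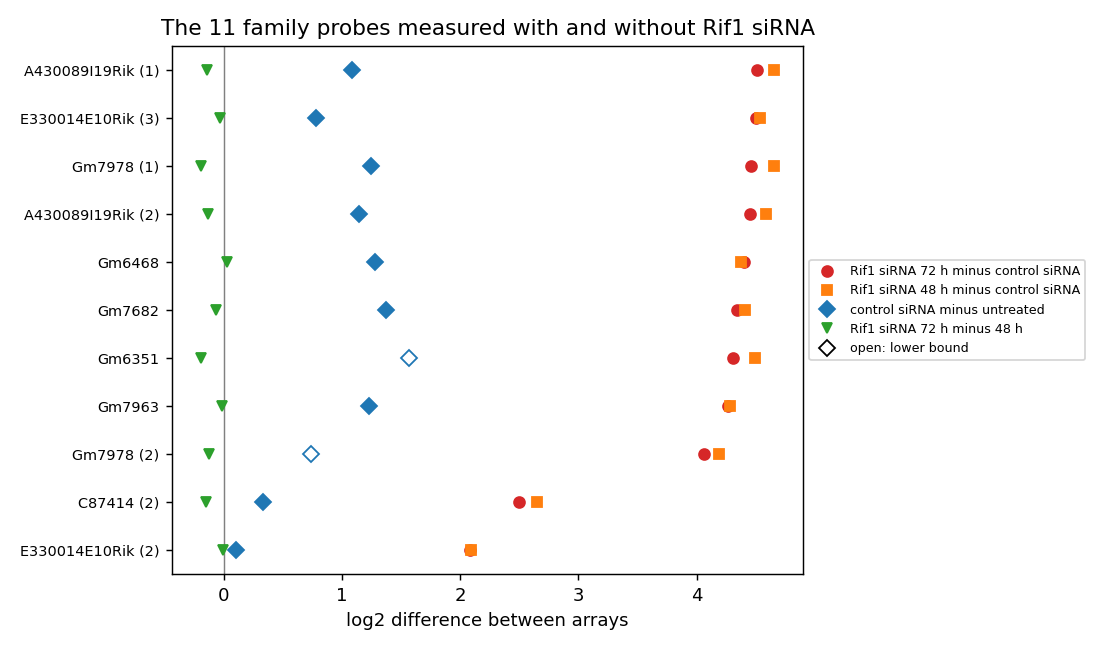
Log2 differences of the 11 family probes measured both with control siRNA and with Rif1 siRNA, 1 row per probe, for 4 pairs of arrays; numbers in parentheses count the probes of a gene from left to right on the chromosome, and open diamonds are lower bounds. Red and orange points lie from 4.06 upward for 9 probes and from 2.08 to 2.65 for the others, blue points between 0.10 and 1.57, and green points between -0.20 and 0.02.

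A list of 21 symbols drawn up for relatives of the family on other chromosomes (Pramel, Pramef, oogenesin and related leucine-rich repeat genes, and C86695) was read for 16 of them, with 1 probe each, and 12 probes passed the filter. The RefSeq table names C86695 Fam90a1a, a gene of another family, so it is no relative by that name. Without it 5 of the 11 probes that passed were over 2-fold higher at 72 h. Of the 12 probes of the full list, 6 were over 2-fold higher at 72 h of Rif1 siRNA than with control siRNA, beside the 2.83% of all probes given above, and 0 were over 2-fold lower. After normexp correction 4 of the 12 were over 2-fold higher. Of the 12, 5 were dim on both arrays without Rif1 siRNA and passed the filter through the Rif1 siRNA arrays, C86695 and Pramel5 among them, and of the 7 probes measured on both compared arrays 4 were over 2-fold higher. Oog2, an oogenesin gene transcribed in oocytes, read 0.0990, 0.120, 1.22 and 1.21 on the 4 arrays, a 10.1-fold difference. Pramel7, a gene of the inner cell mass that supports naive pluripotency, read 0.0647, 0.0677, 0.450 and 0.626, 9.25-fold higher. Pramel6 was 5.69-fold and Pramef17 4.50-fold higher, and Pramel5, dim with control siRNA, was at least 2.57-fold higher. C86695 (Fam90a1a), also dim there, was at least 3.22-fold higher.

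Other listed genes gave smaller differences. Pramef8 read 2.96 with control siRNA and 4.52 at 72 h (1.53-fold), and Pramef12 read 4.54 and 5.36 (1.18-fold). Lrrc14, a leucine-rich repeat gene that is widely transcribed, was 0.968-fold. Between control siRNA and untreated cells 0 of the 12 probes were over 2-fold higher, a count near the 0.585% over all probes, and the 7 measured ones ranged from 0.851-fold to 1.22-fold. The chromosome 5 interval was chosen on the 72 h comparison and this list was drawn up with earlier results known, so no order between them is read from it.

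**Figure D4:**
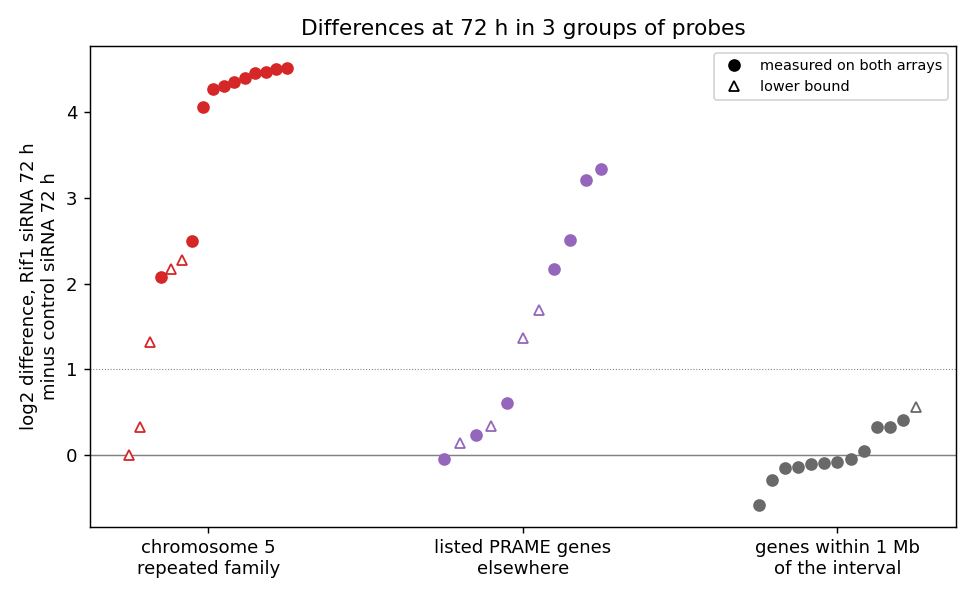
Log2 difference between Rif1 siRNA at 72 h and control siRNA at 72 h for the chromosome 5 family, the listed PRAME genes on other chromosomes (C86695 included) and the genes within 1 Mb of the interval, 1 point per probe with a value; the dotted line is 2-fold and points are spread sideways by rank. The upper set of the family lies from 4.06 to 4.51, the highest relative, Oog2, at 3.33, and the flanking genes from -0.58 to 0.56.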

How the data were processed

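Values of 4 one-color arrays, 1 per condition, were analysed. The authors extracted spot intensity values with Agilent Feature Extraction 11.5.1.1 at default settings, which subtracts background and detrends each array. A second deposited file holds the same signals as a ratio, divided within each array by its 75th percentile. Here log2 of the processed signal was taken minus that of the 75th percentile over 43020 non-control spots, leaving out outlier spots (120 to 152 per array). No spot was saturated. Spots of 1 probe were averaged. A difference over 2-fold was counted. Where 1 side was not well above background, that side took the higher of its own level and the array's lowest well-above-background level, which gives a lower bound. Folds with a bound below 1, or with 2 dim sides, were left out. The number of arrays limits the precision, and repeated spots had a median SD of 0.06 to 0.07 (log2).

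Following the methods' filter as read here, which may not match theirs probe for probe, probes at or above the 20th percentile of an array and flagged detected or compromised on at least 2 arrays were kept, 27706 of 39429. The members, gene lists and alternatives were chosen with earlier results of these data known. Named were all family probes with values, the targeted gene and the relatives over 2-fold higher; the flanking genes and the lesser relatives were added after their values were seen. Positions are those of the array files (mm9); RefSeq tables of GRCm38.p6 gave current symbols and promoters. Software was R 4.3.3 (limma 3.58.1) and Python 3.11.15 (Biopython 1.88, numpy 2.4.6, pandas 2.3.3). The 2-fold call was tested on arrays simulated from the control siRNA array, with known folds given to probes well above background there. The lower-bound rule was not tested in this way. Alternatives were normexp correction (offset 50), quantile normalization, the deposited ratios, outlier spots kept, dim signals as given, other filters, a 4-fold threshold and untreated cells as the reference. A second experiment that the methods mention was not analysed here.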

Additional observations from a re-analysis of the deposited data

How the results depend on the processing

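No paired analysis was possible because conditions were not replicated, and no array could be left out for the same reason. The limit for a moved median was 0.256 on the log2 scale, the SD of the difference of control siRNA from untreated cells over all measured probes, and for a count 1.5 times. Of 70 recomputed summary values, 61 stayed within these limits and 9 moved. Among the 61 are those from the deposited ratios, which hold the same signals, and from outlier spots kept, which left the family values unchanged. These settings could hardly move a value. Normexp background correction lowered the family median at 72 h against control siRNA from 4.16 to 3.73 and that at 48 h from 4.24 to 3.83. Both normexp medians are over 14 probes with a value in place of 16. At 72 h the probes lost were D5Ertd577e A_55_P2069802 and A_55_P2114709, which had the lowest bounds. Normexp also lowered the median of control siRNA against untreated cells from 1.14 to 0.67, and took the count over 2-fold in this comparison from 7 to 0. That count was also 0 at a 4-fold threshold, and with dim signals as given that median was 0.78, over 17 probes in place of 11. Untreated cells in place of control siRNA raised the median at 72 h to 5.39. Among flanking genes, a comparison added after the data were seen, 1 probe was over 2-fold changed with dim signals as given and 1 with untreated cells as the reference. Of 77 recomputed differences of single family probes, 15 moved and 0 changed sign. Normexp moved 11 of the 14 for which it gave a value, and dim signals as given moved 4 of 16. Quantile normalization moved 0 of 15, and the deposited ratios and outlier spots kept moved 0 of 16 each. A bound that fell below 1-fold was left out of these counts, so it could not change sign. The 3 family probes called at 72 h by a lower bound lost that call with normexp. Under normexp the 11 measured probes ranged from 1.38 to 4.33. The planned count for ordinary genes inside the interval was not run because no probe there was counted as one. Depth of signal limits the D5Ertd577e, AA792892 and C87414 probes that were dim without Rif1 siRNA.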

Other observations

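Outside the interval, 4 probes shared a word of 16 bases with a member. A_55_P1970339, annotated to AA792892 on an unplaced sequence, shared 27 bases with the Gm6351 probe and read 0.0173 (dim), 0.0595, 1.40 and 1.27 on the untreated, control siRNA, 48 h and 72 h arrays, 21.3-fold higher at 72 h than with control siRNA. A_55_P1979721, annotated to Gm16367 on an unplaced sequence, shared 25 bases with E330014E10Rik A_55_P2054179 and read 0.0272, 0.0394, 0.733 and 0.744, an 18.9-fold difference. The other two, A_55_P1966848, which shared 22 bases with a C87414 probe, and A_55_P2107225 (Sult2a6), which shared 18 bases with a D5Ertd577e probe, were dim on all arrays, as were the members they matched.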
